A study of Mus musculus with 5 samples.

Results

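The 10 genes described here encode the enzymes of serine synthesis (Phgdh, Psat1 and Psph) and of folate-dependent one-carbon metabolism in the cytosol (Shmt1 and Mthfd1) and in mitochondria (Shmt2, Mthfd2, Mthfd2l, Mthfd1l and Aldh1l2). They were chosen by name, with earlier results of these data known, out of 52022 genes with an annotation match. Shares of the 10 are therefore not those of a list drawn without sight of the data. The genes were measured in the brown adipose tissue (BAT) of 3 ATF4 BKO mice and 2 WT mice. ATF4 BKO mice carried floxed Atf4 alleles with a Cre driven by the Ucp1 promoter, so that the transcription factor ATF4 was deleted in brown adipocytes and not in the other cells of the depot. WT mice were littermates with the same floxed alleles and without Cre. All mice were on the C57Bl/6J background, were labelled male, were 10 to 12 weeks old and had free access to food. They were first kept at 30 °C for 7 days and then at 4 °C for 3 days, so each comparison is between genotypes within cold-exposed BAT and none is between temperatures.

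Serine is made from a glycolytic intermediate in 3 steps: PHGDH oxidises it, PSAT1 adds the amino group and PSPH removes the phosphate. Serine hydroxymethyltransferase then moves a carbon unit from serine to folate and leaves glycine, in the cytosol by SHMT1 and in mitochondria by SHMT2. In mitochondria the folate-bound carbon is oxidised by MTHFD2 or MTHFD2L, and MTHFD1L releases it as formate, which leaves the organelle and is taken up again on folate by the cytosolic enzyme MTHFD1 for the synthesis of purines, thymidylate and methionine. ALDH1L2 oxidises the mitochondrial carbon unit fully to carbon dioxide and yields NADPH. Several of these genes are known targets of ATF4 in other cells, and brown adipocytes are rich in mitochondria.

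Each mouse gave 1 library of between 24698337 and 32452751 estimated counts. Levels are given as CPM (counts scaled to library size, with TMM factors between libraries) within a gene, and as TPM (scaled for transcript length as well) between genes. Atf4 itself had 32.6, 52.6 and 23.5 CPM in ATF4 BKO replicates 1, 2 and 3 and 286 and 226 CPM in WT replicates 1 and 2, without overlap and with a log2 fold change of -2.82 (SE 0.34; adjusted p of 0.671 by edgeR and 9.72e-12 by DESeq2). ATF4 BKO replicate 1 held 4598 Xist counts, against at most 7 in every other library, and 34 counts over 4 Y-linked genes, against at least 3284, which goes against its label as male. Markers of brown adipocytes were high in all libraries, with a summed level of 20240 to 26730 CPM over 10 genes. Of these 10 markers, 0 were lower in ATF4 BKO without overlap and 2 were higher, against 10.6% and 8.95% of all genes. Of 14 skeletal muscle markers, 13 were lower in every ATF4 BKO library than in both WT libraries, with a sum of 39.1 to 52.2 CPM in ATF4 BKO, 129.9 CPM in WT replicate 1 and 2376 CPM in WT replicate 2. Macrophage markers summed to 437 to 1190 CPM in ATF4 BKO, 160 CPM in WT replicate 1 and 992 CPM in WT replicate 2. Sample names start with either of 2 prefixes, which the labels do not explain. ATF4 BKO replicates 1 and 2 and WT replicate 1 have the first prefix and the remaining libraries the second, so a difference between the WT mice cannot be told apart from the prefix. In whole tissue, fewer cells of a type and less RNA per cell cannot be told apart.

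All 10 enzymes passed the count filter and had a log2 fold change below 0, as did 48.8% of the 16450 genes tested. By edgeR's quasi-likelihood test with Benjamini-Hochberg adjustment over all genes, 0 of the 10 passed 0.05, where 0.00608% of all genes did, and 4 (Mthfd2, Phgdh, Psat1 and Shmt2) had an unadjusted p under 0.05 and were lower, against 3.42% of all genes lower and 5.23% in either direction. DESeq2, the tool named in the study's methods, called 3 of the 10 (Mthfd2, Phgdh and Psat1), all lower, where it called 0.736% of all genes and 0.608% as lower. Without a model, 5 enzymes (these 4 and Mthfd2l) were lower in every ATF4 BKO library than in both WT libraries, against 10.6% of all genes. The median log2 fold change was -0.85 over the 10 enzymes and 0.0077 over all genes. Without ATF4 BKO replicate 1, 5 enzymes were still lower without overlap, against 16.4% of all genes.

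The first step of serine synthesis, Phgdh (chr3:98313170-98339990, minus strand, GRCm38), had 3.05, 6.59 and 2.49 CPM in ATF4 BKO mice and 43.0 and 13.7 CPM in WT mice. The lowest WT library was 2.08 times the highest ATF4 BKO library. This is a log2 fold change of -2.81 (SE 0.60), or 7.0-fold lower, with an adjusted p of 0.704 by edgeR and 0.000738 by DESeq2. It was -2.64 without ATF4 BKO replicate 1, -1.75 against WT replicate 2 alone and -3.43 against WT replicate 1 alone. Of the 31-base words in Phgdh transcripts, 55.97% also occur in other genes, chiefly the processed pseudogene Gm7901 (44.8%), and the 15 genes that share at least 5% held together at most 5.2 counts in any library, against 69 to 1359 counts for Phgdh. The division of shared reads by Kallisto leaves the absolute level of Phgdh less certain than that of Mthfd2, which shares no such word with any other gene.

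Psat1 (chr19:15904678-15947337, minus strand) had 6.27, 11.4 and 4.65 CPM in ATF4 BKO mice and 62.7 and 15.9 CPM in WT mice. The genotypes did not overlap, but the WT libraries differed from each other by 3.94 times, more than the 1.40 times between the lowest WT and the highest ATF4 BKO library. The log2 fold change was -2.40 (SE 0.62; 5.28-fold lower), with an adjusted p of 0.771 by edgeR and 0.0136 by DESeq2. Against WT replicate 2 alone it was -1.09, and against WT replicate 1 alone -3.10, and without ATF4 BKO replicate 1 it was -2.30.

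Psph, the last step, had 26.2, 11.6 and 25.7 CPM in ATF4 BKO mice and 25.2 and 26.3 CPM in WT mice, so the genotypes overlapped. Its log2 fold change of -0.28 had a 95% interval from -1.14 to 0.58, and it was 0.030 without ATF4 BKO replicate 2, whose level stood apart from the other libraries. Of the Psph words, 9.79% occur in other genes, chiefly the neighbouring Cct6a. The enzymes of the first and second steps were thus lower in ATF4 BKO mice in these libraries and the third was not separated from WT. As a share of the summed TPM of the 3 enzymes, Psph held 84.0%, 53.3% and 88.2% in the ATF4 BKO libraries and 29.0% and 60.7% in the WT libraries, shares that overlap between genotypes.

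**Figure D1:**
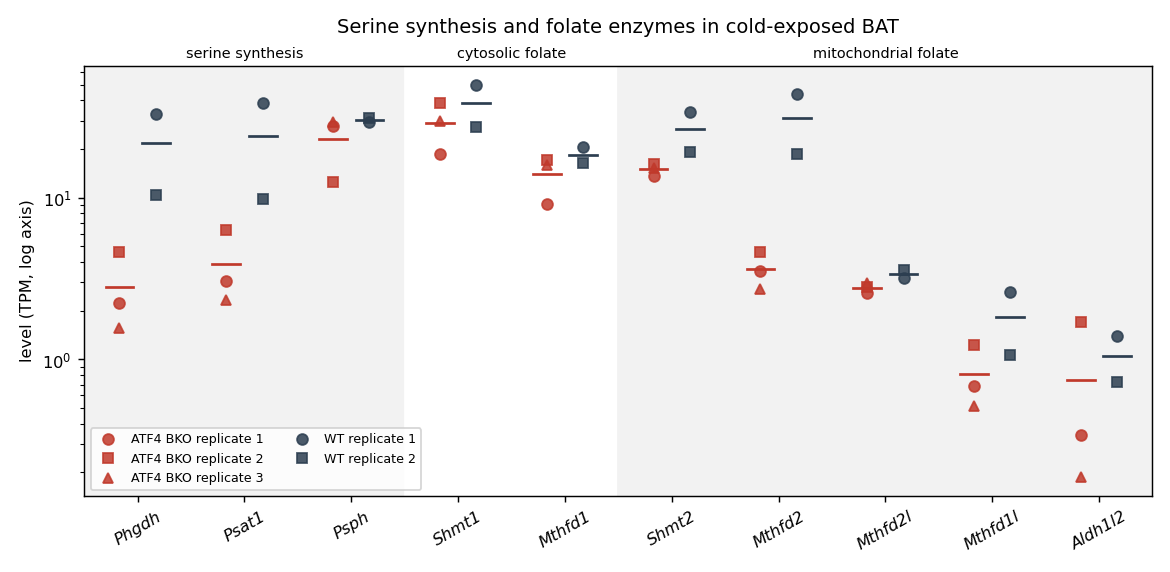
Level of each enzyme gene in TPM (log axis) by library, with ATF4 BKO in red, WT in dark blue and a line at each group mean (n = 3 and n = 2). Mthfd2, Phgdh and Psat1 lie below both WT libraries in all 3 ATF4 BKO libraries, while Psph, Shmt1 and Mthfd1 overlap between genotypes.

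Among the mitochondrial enzymes, Mthfd2 (chr6:83305691-83325908, minus strand), the dehydrogenase and cyclohydrolase that is high in embryonic and dividing cells and low in most adult tissues, had the largest difference of the 10. It had 3.67, 6.09 and 3.23 CPM in ATF4 BKO mice and 61.9 and 25.6 CPM in WT mice, from 83 to 171 counts and from 866 to 1955 counts. The lowest WT library was 4.20 times the highest ATF4 BKO library, and the WT libraries differed by 2.42 times. The log2 fold change was -3.33 (SE 0.45; 10.1-fold lower), with an unadjusted p of 0.000289 and an adjusted p of 0.671 by edgeR and an adjusted p of 1.75e-09 by DESeq2. Without the count filter, edgeR's adjusted p was 0.0281. The log2 fold change was -2.55 against WT replicate 2 alone, -3.85 against WT replicate 1 alone and -3.23 without ATF4 BKO replicate 1, and within the sample-name prefixes it was -3.69 and -2.96. The protein-coding transcript Mthfd2-201 held between 85.4% and 98.7% of the counts of the gene in each library, and the second, Mthfd2-206, annotated as subject to nonsense-mediated decay, at most 10.7%.

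Mthfd2l (chr5:90931117-91021368, plus strand), the paralog with the same reaction, had 3.58, 3.13 and 3.27 CPM in ATF4 BKO mice and 4.02 and 3.63 CPM in WT mice. The groups did not overlap, but by only 1.014 times between the nearest libraries. Its log2 fold change of -0.20 had a 95% interval from -0.75 to 0.35, which leaves out a change as large as that of Mthfd2. It rested on 81 to 127 counts a library.

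The sequence before the RefSeq start site (GRCm38.p6) is printed for the 3 enzymes with the largest differences and, chosen after its values were seen, for Mthfd2l, whose level was near that of WT. Each runs 5′ to 3′ on the strand of the gene, without bases that the annotation places in an exon, over chr6:83317607-83317854 for Mthfd2, chr3:98339991-98340219 for Phgdh, chr19:15925060-15925309 for Psat1 and chr5:90930946-90931116 for Mthfd2l. Capitals mark CCAAT on either strand.
Mthfd2: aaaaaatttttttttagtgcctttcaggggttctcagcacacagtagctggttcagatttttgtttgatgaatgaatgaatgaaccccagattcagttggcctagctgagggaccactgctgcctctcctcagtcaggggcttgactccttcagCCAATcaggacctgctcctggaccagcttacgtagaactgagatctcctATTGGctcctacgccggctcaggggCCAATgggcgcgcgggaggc
Phgdh: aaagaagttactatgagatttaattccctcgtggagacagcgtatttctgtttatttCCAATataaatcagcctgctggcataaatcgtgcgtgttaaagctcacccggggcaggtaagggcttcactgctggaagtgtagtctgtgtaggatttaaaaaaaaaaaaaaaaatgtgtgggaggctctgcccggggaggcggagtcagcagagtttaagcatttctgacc
Psat1: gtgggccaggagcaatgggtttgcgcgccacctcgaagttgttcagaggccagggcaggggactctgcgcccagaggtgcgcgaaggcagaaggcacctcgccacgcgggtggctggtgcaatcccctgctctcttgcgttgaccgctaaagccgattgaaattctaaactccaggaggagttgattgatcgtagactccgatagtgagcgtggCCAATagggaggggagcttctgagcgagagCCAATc
Mthfd2l: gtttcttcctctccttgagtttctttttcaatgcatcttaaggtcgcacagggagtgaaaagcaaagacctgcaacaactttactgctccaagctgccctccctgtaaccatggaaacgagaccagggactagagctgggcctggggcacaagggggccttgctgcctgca
The stretch of Mthfd2 holds 3 such matches, that of Psat1 2, that of Phgdh 1 and that of Mthfd2l 0. RefSeq windows, from 250 bases before to 50 bases after a start site, were at hand for 9 of the 10 genes (10 windows, 2 of them for Psat1; Aldh1l2 had none). On both strands, the letters TGATGNAA, the composite element that ATF4 binds with a C/EBP partner, were in 0 of the 10 windows and in 3.97% of 32851 windows of all genes, and TGACGTCA, the cAMP response element, was in 0 and in 1.79%. CCAAT, searched only after those letters gave no match, was in 6 of the 10 windows and in 37.4% of all windows, and GGGCGG, the GC box, likewise in 6 and in 35.7%. The windows of Psph, Shmt1 and Mthfd1, which overlapped between genotypes, held 2, 1 and 1 CCAAT matches. Those of Shmt2, Mthfd1l and Mthfd2l and the other window of Psat1, not printed, held 0. Counted over the full windows in the same way, Mthfd2 held 3, the printed window of Psat1 3 and Phgdh 2. A relation of CCAAT to the differences between genotypes was not tested. These windows are short, and a match or its absence is a description of the letters in them.

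Shmt2, which loads the carbon of serine onto mitochondrial folate, had 23.4, 23.3 and 24.6 CPM in ATF4 BKO mice and 50.2 and 26.7 CPM in WT mice. The ATF4 BKO libraries were within 1.06 times of each other, and WT replicate 2 was 1.08 times the highest of them, so the difference lay mainly in WT replicate 1. The log2 fold change was -0.69 (SE 0.26, 95% interval from -1.33 to -0.050), with an unadjusted p of 0.0386 and an adjusted p of 0.911 by edgeR and 0.725 by DESeq2. Against WT replicate 2 alone it was -0.15.

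Mthfd1l, which releases formate from mitochondrial folate, had 1.68, 3.63 and 1.45 CPM in ATF4 BKO mice and 7.47 and 2.39 CPM in WT mice, with the highest ATF4 BKO library above WT replicate 2. Its log2 fold change of -1.13 had a 95% interval from -2.59 to 0.34, and it was -0.079 against WT replicate 2 alone. In ATF4 BKO replicate 1, 41.4% of its 38 counts were given to the transcript Mthfd1l-201, which held none in the other libraries.

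Aldh1l2 had 1.10, 2.92 and 0.77 CPM in ATF4 BKO mice and 4.30 and 2.12 CPM in WT mice, and the genotypes overlapped. Its log2 fold change was -1.0, with a 95% interval from -2.52 to 0.52, on 23 to 136 counts a library. Of its words, 14.7% occur in other genes, chiefly the overlapping D10Wsu102e. On the TPM scale ATF4 BKO replicate 2 was highest of all, at 1.69 TPM against 1.39 and 0.73 TPM in WT mice, so the order of the libraries depends on how the counts were divided among transcripts.

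The cytosolic folate enzymes overlapped between genotypes. Shmt1, the cytosolic counterpart of Shmt2, had 21.5, 43.3 and 34.9 CPM in ATF4 BKO mice and 65.4 and 33.3 CPM in WT mice, and a log2 fold change of -0.57 (95% interval from -1.49 to 0.36). Mthfd1, the cytosolic enzyme that takes up formate and oxidises and reduces its folate adducts, had 24.16, 33.64 and 40.74 CPM in ATF4 BKO mice and 50.03 and 34.93 CPM in WT mice, and a log2 fold change of -0.37 (95% interval from -1.01 to 0.27). Against WT replicate 2 alone their log2 fold changes were 0.0072 and -0.075. Kallisto divided the counts of Mthfd1 between Mthfd1-201 and Mthfd1-206 in shares that varied most among ATF4 BKO mice, with Mthfd1-206 at 20.6%, 35.4% and 53.8% there and at 29.7% and 28.2% in WT mice.

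**Figure D2:**
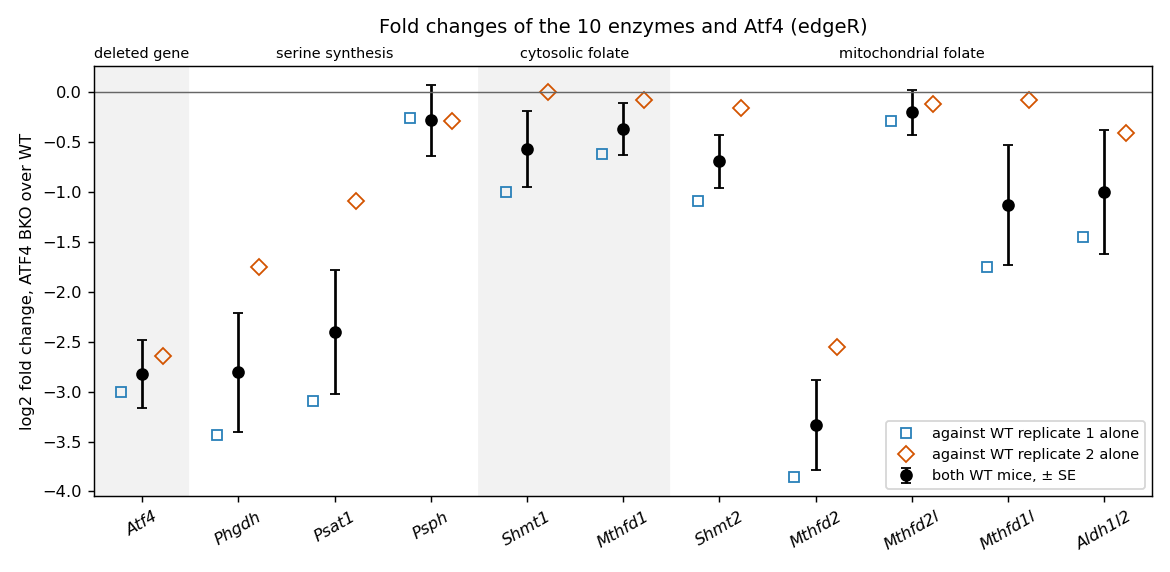
Log2 fold change (ATF4 BKO over WT) of Atf4 and the 10 enzyme genes by edgeR, with black points and SE bars for both WT mice and open symbols for each WT mouse alone. Mthfd2 is at -3.33 and stays at -2.55 against WT replicate 2 alone, where Mthfd1l, Mthfd1 and Shmt1 come to between -0.079 and 0.0072.

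The difference between the WT mice had the same direction in most of the 10 enzymes. In 9 of the 10 enzymes, all but Psph, WT replicate 1 was above WT replicate 2, against 49.6% of all genes. Among the ATF4 BKO libraries, replicate 2 was highest in 6 enzymes, against 43.5% of all genes. Atf4 was highest in WT replicate 1, followed by WT replicate 2 and by ATF4 BKO replicates 2, 1 and 3, and Phgdh, Psat1 and Mthfd2 had the 5 libraries in exactly this order, as did 1.68% of all genes. Such an order is possible only for genes lower in ATF4 BKO without overlap, which were 10.6% of all genes. The 1.68% therefore includes the difference between genotypes already given for these 3 enzymes. Mthfd1l and Aldh1l2 kept the order within each genotype but not between genotypes, so 5 of the 10 kept it within genotypes, against 8.83% of all genes. The mean log2 CPM of the muscle markers was -0.79, 1.006 and -1.37 in ATF4 BKO replicates 1, 2 and 3 and 2.70 and 6.88 in WT replicates 1 and 2, so they were lower in ATF4 BKO and had the order of Atf4 and these 5 enzymes within ATF4 BKO but not within WT. The macrophage markers, at 5.55, 6.32 and 4.69 in ATF4 BKO and 4.01 and 5.78 in WT, also had that order within ATF4 BKO but not within WT. With the muscle marker level as a term in the fit, the log2 fold change of Mthfd2 was -3.92, that of Phgdh -3.39 and that of Psat1 -3.22, with adjusted p of 0.0848, 0.232 and 0.259 by edgeR. The muscle marker level did not overlap between genotypes, so over 5 libraries this fit cannot tell it apart from genotype. The SE of Mthfd2 was 0.70 with the term and 0.45 without it. The part of muscle and macrophage cells in the enzyme levels was not tested.

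By compartment, the median log2 fold change was -1.0 over the 5 mitochondrial enzymes and -0.57 over the 5 cytosolic enzymes, serine synthesis included. Against WT replicate 2 alone these medians were -0.15 and -0.29, in the reverse order, and against WT replicate 1 alone they were -1.45 and -0.99. Within the first sample-name prefix they were -1.22 and -1.10, and within the second -0.70 and -0.030, and without ATF4 BKO replicate 1 they were -0.80 and -0.46. A median over 5 unlike genes therefore did not separate the compartments in these data, and the values within each compartment ranged widely.

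Per transcript length, the order of the enzymes in WT mice began with Shmt1 (38.6 ± 15.7 TPM; SD, n = 2), Mthfd2 (31.2 ± 17.8), Psph (30.3 ± 1.42), Shmt2 (26.7 ± 10.52), Psat1 (24.2 ± 20.3), Phgdh (21.8 ± 16) and Mthfd1 (18.5 ± 3.13 TPM). The ranges of these 7 overlap between neighbours in that order, while Shmt1, Mthfd2, Psph and Shmt2 each lay above Mthfd1 within both WT libraries. Mthfd2l (3.38 ± 0.28 TPM), Mthfd1l (1.84 ± 1.09 TPM) and Aldh1l2 (1.06 ± 0.47 TPM) lay below them, and Mthfd1l and Aldh1l2 overlapped with each other. In ATF4 BKO mice (SD, n = 3) Shmt1 (29.2 ± 10.1 TPM, noncoding transcripts included), Psph (23.2 ± 9.33), Shmt2 (15.1 ± 1.29) and Mthfd1 (14.1 ± 4.35 TPM) were highest. Mthfd2 came to 3.63 ± 0.96 TPM, beside 3.90 ± 2.11 TPM for Psat1, 2.80 ± 1.59 TPM for Phgdh and 2.78 ± 0.19 TPM for Mthfd2l, and these 4 did not differ beyond their spread. In ATF4 BKO mice Mthfd2 was thus near the level of its paralog by these sums, and it exceeded the paralog in WT mice. At such low levels the sums include a few counts given to short transcripts. The coding transcript Mthfd2-201 had 1.72, 3.34 and 1.61 TPM in ATF4 BKO replicates 1, 2 and 3. Mthfd2l-201 had 1.45, 1.33 and 1.12 TPM there, below Mthfd2-201 in each.

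The ratio of Mthfd2 to Mthfd2l within a library does not depend on the scaling between libraries. It was 1.36, 1.67 and 0.92 in the ATF4 BKO libraries and 13.8 and 5.21 in the WT libraries, and did not overlap between genotypes. The mean log2 ratio differed by -2.73, and the two-sided exact permutation test over the 5 libraries gave p = 0.1, the smallest that its 10 splits allow, or 0.4 adjusted over the 4 ratios tested. Without any 1 of the libraries the difference was between -3.43 and -2.03.

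The other pairs showed no such separation. The ratio of Shmt2 to Shmt1 was 0.73, 0.42 and 0.51 in the ATF4 BKO libraries and 0.69 and 0.70 in the WT libraries (exact permutation p = 0.4, adjusted 0.533), and that of Mthfd1l to Mthfd1 was 0.075, 0.072 and 0.032 in the ATF4 BKO libraries and 0.126 and 0.066 in the WT libraries (exact permutation p = 0.6, adjusted 0.6). Both pairs overlapped between genotypes. In the ratio of Shmt2 to Shmt1, Shmt1 includes noncoding transcripts. The main coding transcript of Shmt2 had 10.6, 11.82 and 11.3 TPM in ATF4 BKO mice and 23.8 and 14.9 TPM in WT mice. That of Shmt1 had 5.37, 11.74 and 8.46 TPM and 20.8 and 10.3 TPM, nearly equal in ATF4 BKO replicate 2 and lower elsewhere. With protein-coding transcripts only, the log2 ratio differed between genotypes by -0.0026, against -0.36 with all transcripts. The summed TPM of the 5 mitochondrial folate enzymes over that of the 2 cytosolic ones was 0.75, 0.48 and 0.47 in the ATF4 BKO libraries and 1.21 and 0.98 in the WT libraries, without overlap, a difference of -0.98 on the log2 scale (exact permutation p = 0.2, adjusted 0.4). The cytosolic sum includes the same noncoding transcripts of Shmt1, and with protein-coding transcripts only the difference was -0.94.

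That sum was 20.8, 26.6 and 21.7 TPM in ATF4 BKO mice and 85.1 and 43.2 TPM in WT mice for the mitochondrial enzymes. Mthfd2 made up 16.9%, 17.4% and 12.7% of it in the ATF4 BKO libraries and 51.5% and 43.1% in the WT libraries, and Shmt2 65.8%, 61.1% and 70.4% against 40.1% and 44.5%. The mitochondrial set was therefore mostly Shmt2 in ATF4 BKO mice and mostly Mthfd2 and Shmt2 together in WT mice. The cytosolic sum, noncoding transcripts of Shmt1 included, was 27.9, 56.0 and 45.9 TPM in ATF4 BKO mice and 70.4 and 43.9 TPM in WT mice, with overlap.

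**Figure D3:**
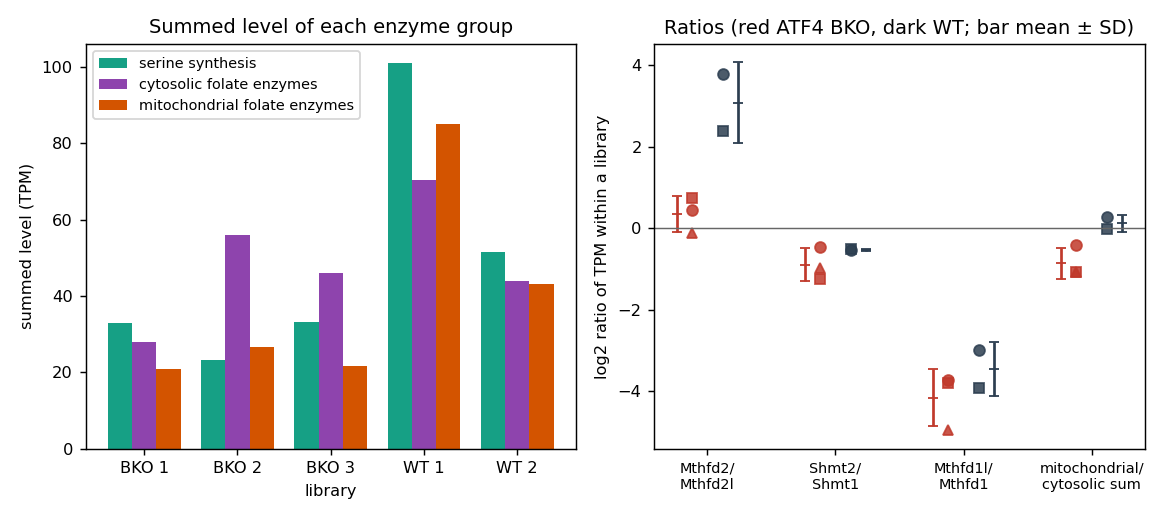
Left, summed TPM of the serine synthesis, cytosolic folate and mitochondrial folate enzymes in each library, with bars from 0. Right, log2 of 4 ratios of TPM within a library, with red for ATF4 BKO, dark blue for WT and bars for the mean ± SD. The Mthfd2 to Mthfd2l ratio is 0.92 to 1.67 in ATF4 BKO and 5.21 to 13.8 in WT libraries.

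Of all 16450 genes, the profile nearest to that of Mthfd2 over the 5 libraries was that of Csn3, by the root mean square difference of log2 CPM centred on each gene (0.17). It was followed by Phgdh (0.33), Atf4 itself (0.36), the gene model Gm38575 (0.36) and the glycine transporter gene Slc6a9 (0.39), with Psat1 at rank 15. Csn3, which encodes kappa-casein, had 0.27, 0.68 and 0.27 CPM in ATF4 BKO mice and 7.47 and 2.57 CPM in WT mice (DESeq2 adjusted p of 0.000159), and Gm38575 was at 0 in every ATF4 BKO library and at 1.33 and 0.32 CPM in WT. The likeness is a description over 5 libraries of 2 genotypes, and most of it is the difference between genotypes.

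Another 46 genes belong to 5 lists of the surrounding pathway, of which 39 were tested. DESeq2 called 2 of them, Slc6a9 lower and Gnmt higher, and edgeR called 0, with 4 at an unadjusted p under 0.05. Over all genes these shares were 0.736% by DESeq2, 0.00608% by edgeR and 5.23% at an unadjusted p under 0.05. The carriers of serine and glycine and the serine dehydratases had a median log2 fold change of -0.043, with 4 of 8 genes below 0. Slc6a9 (GLYT1), which takes up glycine, had 1.63, 3.06 and 2.32 CPM in ATF4 BKO mice and 29.0 and 7.91 CPM in WT mice, for a log2 fold change of -2.97 (SE 0.57) with an adjusted p of 0.701 by edgeR and 0.000152 by DESeq2. Of its words, 28.5% are shared with other genes. Slc1a4, a carrier of alanine, serine and cysteine, had 1.72, 1.28 and 1.41 CPM in ATF4 BKO mice and 3.64 and 2.66 CPM in WT mice, for a log2 fold change of -1.10 with an unadjusted edgeR p of 0.00937 and an adjusted p of 0.794. Slc1a5, a glutamine and neutral amino acid carrier and the highest of the list in TPM, had 299 to 534 CPM in ATF4 BKO mice and 397 and 456 CPM in WT mice, and overlapped.

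In the methionine cycle, which uses folate-bound carbon to renew methionine, the median log2 fold change was -0.20 over 8 tested genes, with 5 below 0. Gnmt, the glycine N-methyltransferase that uses S-adenosylmethionine and is inhibited by folate, went the other way. It had 14.1, 11.9 and 15.0 CPM in ATF4 BKO mice and 5.67 and 4.75 CPM in WT mice. The log2 fold change was 1.39 (SE 0.20), with an unadjusted p of 0.000453 and an adjusted p of 0.671 by edgeR and an adjusted p of 1.75e-05 by DESeq2, and every ATF4 BKO library was above both WT libraries, as in 8.95% of all genes. An unadjusted p under 0.05 with a higher level was found for 1.81% of all genes. Against each WT mouse alone the log2 fold change of Gnmt was 1.54 and 1.26, and without ATF4 BKO replicate 1 it was 1.37. Ahcyl1, the highest of the list in TPM, had 436 to 623 CPM in ATF4 BKO mice and 505 and 534 CPM in WT mice. Ahcyl2 was lower without overlap, as were 10.6% of all genes. Its log2 fold change was -0.41 (95% interval from -0.87 to 0.045).

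The 6 genes of de novo purine synthesis, which consumes formyl-folate, were all below 0 in log2 fold change. Their median was -0.26, and against each WT mouse alone it was -0.43 and -0.049. Atic, which carries out the second formyl transfer, had 26.1, 29.7 and 21.8 CPM in ATF4 BKO mice and 48.1 and 32.1 CPM in WT mice, for a log2 fold change of -0.63 with an unadjusted edgeR p of 0.0288 and an adjusted p of 0.911. Gart, which carries out the first, was also lower without overlap, as were 10.6% of all genes. Paics, the highest of the list in TPM, overlapped.

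In the glycine cleavage and methylglycine oxidation list, 5 of 6 genes were tested, and the median log2 fold change was -0.092. The highest in TPM, Dld, the dehydrogenase that this system shares with other mitochondrial complexes, had 773 to 973 CPM in ATF4 BKO mice and 934 and 948 CPM in WT mice. Gcsh, which carries the aminomethyl group, was lower without overlap, as were 10.6% of all genes, with a log2 fold change of -0.36 (95% interval from -0.83 to 0.10). Of 14 genes of folate uptake, retention and other folate enzymes, 12 were tested, of which 7 were above 0, and the median log2 fold change was 0.17. The mitochondrial folate carrier Slc25a32 was higher in every ATF4 BKO library, as were 8.95% of all genes, with a log2 fold change of 0.38 (95% interval from -0.026 to 0.78). Tyms, which makes thymidylate, was lower in every ATF4 BKO library, as were 10.6% of all genes, with a log2 fold change of -0.14. Aldh1l1, the cytosolic counterpart of Aldh1l2 and the highest of that list in TPM, had 54.0, 90.0 and 150.0 CPM in ATF4 BKO mice and 62.1 and 57.3 CPM in WT mice.

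**Figure D4:**
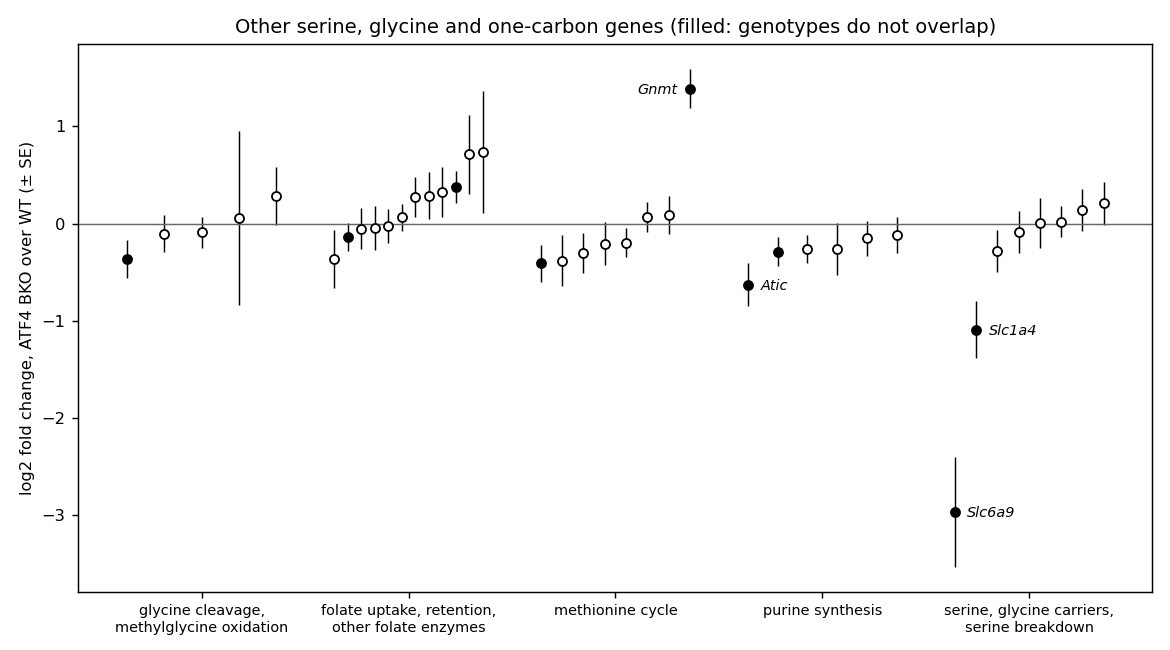
Log2 fold change (ATF4 BKO over WT, bars SE) of the tested genes of 5 further lists of serine, glycine and one-carbon metabolism, filled where the genotypes do not overlap. Named are the genes with an unadjusted edgeR p under 0.05, of which Slc6a9 (-2.97), Slc1a4 and Atic lie below 0 and Gnmt (1.39) above.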

How the data were processed

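RNA of BAT from 3 ATF4 BKO and 2 WT mice had been made into stranded mRNA libraries. The authors deposited a table per mouse with estimated counts per transcript from Kallisto 0.45.0, without normalization between mice. The deposited TPM come from the same tables, scaled for effective length, which was the same in every table. The transcript annotation was not given in the sources used here.

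Of 141450 transcripts, 138191 matched GENCODE M21 (GRCm38) by identifier, and the others, with 1.16% to 1.29% of counts, were not used. Gene sums (52022 genes) were rounded to whole numbers. No pair of libraries agreed within sampling noise (lowest chi-square over its degrees of freedom 52.9).

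The genotype comparison used edgeR 4.0.16 under R 4.3.3 (TMM, at least 10 counts in at least 2 libraries, quasi-likelihood test, Benjamini-Hochberg adjustment over all genes tested, threshold 0.05), with 3 residual and 3.06 prior degrees of freedom, from which 95% intervals were taken. DESeq2 1.42.0 and limma 3.58.1 on log2(TPM + 1) and log2(TPM + 0.1) were alternatives, beside scaling, filter, length scaling, coding transcripts, leaving out each library, the replicate block, the name prefix and a muscle term. The fits were tested on counts simulated with 1 dispersion for all genes. There edgeR recovered 197 of 200 changed genes with 12 false calls, and DESeq2 197 with 21. Because the spread of the real genes differs from gene to gene, this does not tell how many real changes either tool finds here.

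Members and gene lists were chosen with earlier results of these data known. The genes named are the 10 members, Atf4, list genes with an unadjusted edgeR p under 0.05 or the highest TPM of a list, the 5 nearest profiles to Mthfd2, and transcripts with at least 10% of counts of a member. Gcsh, Slc25a32, Tyms, Gart and Ahcyl2 were named after their values were seen. Psph, Phgdh, Aldh1l2 and Slc6a9 share 31-base words with other genes, and their counts are less certain. The same holds for Gart (17.2% of its words), Paics (16.7%), Aldh1l1 (11.35%) and Tyms (10.9%). Promoter windows are those of RefSeq (GRCm38.p6).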

Additional observations from a re-analysis of the deposited data

How the results depend on the processing

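Over 34 results and 569 alternative values, 483 kept their direction and their side of the threshold or stayed within the replicate spread. Values counted so can still differ much in size. Without WT replicate 1, the log2 fold change of Psat1 went from -2.40 to -1.09 and that of Shmt2 from -0.69 to -0.15. With 2 WT libraries, the spread within WT rests on 1 pair, and Aldh1l2 has the fewest counts of the enzymes in 4 of the 5 libraries. The cause of the changes listed here was not tested. The number of genes called, 1 by edgeR, was 121 by DESeq2, 8 without the count filter, 0 by limma on log2(TPM + 1), 2 by limma on log2(TPM + 0.1), 0 with a term for the name prefix and 218 with one for the muscle markers, and ranged from 0 to 23 when 1 library was left out, the 23 being without WT replicate 1 and the 0 without any of the ATF4 BKO libraries. At an unadjusted p under 0.05 these counts of 0 correspond to 1431 genes by limma, 876 with the prefix term and 506 to 1101 without an ATF4 BKO library. Of the 10 enzymes, 3 were called by DESeq2 and 1 without the count filter. Atf4 was past the threshold by DESeq2 (-2.83) and without the count filter (-2.82), and ranged from -3.18 to -2.58 with 1 library left out. The number of enzymes lower without overlap, 5, ranged from 4 to 9 with 1 library left out, 9 being without WT replicate 2 (30.7% of all genes) and 4 without WT replicate 1 (18.5%), against 10.6% with every library, and came to 9 among libraries of the first prefix and 8 among those of the second, where 34.7% and 53.9% of all genes did so. It could not be formed for the fits with a further term.

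The median of the mitochondrial enzymes ranged from -1.65 (without ATF4 BKO replicate 2) to -0.15 (without WT replicate 1) with 1 library left out. That of the cytosolic enzymes ranged from -0.99 to -0.29, and was -1.04 with the muscle term, -1.10 within the first prefix and -0.030 within the second. The single enzymes that changed direction were Psph without ATF4 BKO replicate 2 (0.030; range -0.46 to 0.030), Shmt1 without WT replicate 1 (0.0072; range -0.99 to 0.0072) and within the second prefix (0.069), and Mthfd1 within the second prefix (0.22). With library totals alone the median of all genes was -0.099, and it was -0.12 and -0.17 by limma with the larger and the smaller pseudocount.

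Among the lists, the median for glycine cleavage was -0.21 with length-scaled counts, -0.40 with either pseudocount and -0.57 with the muscle term (-0.21 to -0.0012 with 1 library left out). That for folate handling was 0.060 with library totals alone, 0.019 and 0.019 by limma, -0.087 with the muscle term, 0.015 and 0.11 within the prefixes, and 0.034 to 0.20 with 1 library left out. That for the methionine cycle was -0.47 with the muscle term, -0.43 and 0.055 within the prefixes and -0.41 to 0.057 with 1 library left out. That for purine synthesis was -0.54 with the muscle term, -0.42 and -0.080 within the prefixes and -0.43 to -0.049 with 1 library left out. That for carriers was -0.25 by limma with the smaller pseudocount, -0.61 with the muscle term, -0.36 and 0.23 within the prefixes and -0.25 to 0.071 with 1 library left out. Dld (range -0.17 to 0.013) and Paics (range -0.37 to 0.096; 0.19 within the second prefix) changed direction with 1 library left out. Ahcyl1, at 0.086, was -0.030 with library totals alone, -0.075 with coding transcripts, -0.075 and -0.075 by limma, -0.30 with the muscle term, -0.070 within the first prefix and -0.010 to 0.25 with 1 library left out. Slc1a5, near 0, was -0.11, -0.19, -0.18, -0.18, -0.66 and -0.31 in the same order, and -0.19 to 0.22 with 1 library left out.

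The replicate numbers 1 and 2 occur in both genotypes, but deviations from the group means correlated by 0.047 and 0.20 in the pairs, and the libraries share only a number. With the replicate number as a block, which leaves 1 residual degree of freedom, the count of genes called was 0 (711 before adjustment), the log2 fold change of Mthfd2 was -3.05, Ahcyl1 was -0.029, Slc1a5 -0.21, and the list medians were 0.031 for folate handling and -0.26 for carriers.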

Other observations

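The shares of the minor transcripts of the enzyme genes varied between mice. Shmt2-206, a second coding transcript of Shmt2, took 10.8% of the counts of the gene in WT replicate 1 and at most 0.33% in every other library, WT replicate 2 included. Psat1-205, a coding transcript, took 26.1%, 24.8% and 8.69% of Psat1 counts in ATF4 BKO replicates 1, 2 and 3 and 27.6% and 21.2% in WT replicates 1 and 2. Psat1-204, annotated with a retained intron, took 4.89%, 12.5% and 16.1% in ATF4 BKO and 9.53% and 18.2% in WT. A transcript of Shmt1 annotated as processed, without a coding sequence, held 24.1% to 30.8% of Shmt1 counts in all 5 libraries. Mthfd2l-203 and Mthfd2l-204 held 7.88% to 22.6% and 4.91% to 13.6% of Mthfd2l counts. Aldh1l2-206 held 28.0% of the 23 counts of Aldh1l2 in ATF4 BKO replicate 3 and 17.98% of the 72 counts in WT replicate 2, against at most 1.11% in the other libraries. These shares are Kallisto's division of reads that fit several transcripts, and no test was made on them.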
